A study of Mus musculus with 59 samples.

Results

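The regions described here are 1219 windows of 5 kb in the genome of mouse embryonic stem (ES) cells, out of 546202 windows in the deposited tables and 492558 on chromosomes 1 to 19. They were chosen as windows with more reads in the precipitates of both DGCR8 and Drosha than in their inputs, and without such an excess in the METTL3 precipitates made in another set. The rule asked for a ratio of counts scaled to the total of the library (CPM) of precipitate over input of at least 2.5 for DGCR8 and for Drosha, at least 50 counts in both precipitates and at least 5 in both inputs. It also asked for a METTL3 ratio under 2 in each of 4 METTL3 precipitates, each over the input of its own clone. Of 90922 windows with enough counts to be judged, called eligible below, 2419 had both ratios at 2.5 or more. Of these 2419, 233 had a METTL3 ratio of at least 2 in 4 of 4 precipitates, 967 had it in some, and 1219 in none. The values in the rule are therefore a description of the choice and were not tested.

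The cells expressed the bacterial biotin ligase BirA and carried FLAG and Avi tags on the endogenous protein, so that streptavidin beads took the place of antibodies in chromatin immunoprecipitation (ChIP). Chromatin was cross-linked with disuccinimidyl glutarate (DSG), a long cross-linker that also holds proteins on nascent RNA, except in 1 DGCR8 precipitate made with formaldehyde. The first set held 1 library each of DGCR8 with formaldehyde, DGCR8 with DSG, Dicer, Drosha, a DGCR8 input and a parental input. The second held 2 METTL3 precipitates and 1 input from each of 2 clones. The third held DGCR8 from wild type and from Mettl3 knockout cells with a wild type input, and the fourth DGCR8 and METTL3 (H4 and H5) kept at 37 °C or heated to 42 °C for 1 h, with inputs at 37 °C only. RNA came from ES cells with floxed DGCR8 or floxed Drosha, untreated or after 24, 48 or 96 h in 0.5 µM 4-hydroxytamoxifen (4OHT), which activates the recombinase (2 libraries per group, 1 for Drosha with 4OHT at 96 h). Further RNA came from 2 parental samples and 4 Mettl3 knockout lines (1d1, 3xU, 1d2 and 2c4d), each kept at 37 °C or heated to 42 °C for 1 h. Nothing in the labels tells if parental 1 and 2, or H4 and H5, are separate lines or clones, so the p-values cover the spread of the samples at hand, which may be technical. Titles and source names conflicted for part of the libraries of 3 sets, and titles and column names were followed.

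DGCR8 and Drosha form the Microprocessor. DGCR8 grips the hairpin of a primary microRNA transcript and Drosha, a nuclease, cuts it out while the transcript is still being made; Dicer trims the hairpin later in the cytoplasm. METTL3 is the catalytic subunit of the enzyme that writes N6-methyladenosine (m6A) on nascent RNA. In ES cells the Microprocessor supplies the microRNAs that keep the cell cycle fast, and it also cuts hairpins in some messenger and noncoding RNAs, among them its own DGCR8 mRNA.

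The ChIP libraries held 13.8 to 86.3 M counts (M is 1e6) and the RNA libraries 7.10 to 13.6 M counts. The RNA carried the ES cell markers, with a summed level of 8 markers of 2238 to 4688 CPM over the 35 libraries. The summed markers of primitive endoderm, neuroectoderm, mesendoderm, trophoblast and fibroblasts reached at most 71.7, 247, 33.1, 118 and 43.7 CPM. Mettl3 RNA was lower in the knockout lines at 37 °C (log2 fold change -1.23 ± 0.25 SE, edgeR adjusted p = 0.044), and Drosha RNA fell in the floxed Drosha line with 4OHT at each time (-1.68, -2.12 and -2.28). Dgcr8 RNA rose in the floxed DGCR8 line (1.27, 0.95 and 1.02). The counts of that gene thus do not by themselves show the loss that the label names, and the reason for the rise was not tested.

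The share of reads per chromosome stood apart in libraries that the rule sets against each other. Chromosome 8 took 8.04% of the counts of the library labelled DGCR8 input but 5.41% of those of the DGCR8 DSG precipitate, and chromosome 14 took 3.65% and 6.09%. The library labelled parental input had 5.50% and 5.51% on those chromosomes, while the Drosha precipitate set against it had 7.41% and 4.05%. In these shares each of the 2 precipitates resembled the input of the other more than its own. With the 2 inputs exchanged, the rule found 746 windows, of which 474 were among the 1219. Results below are given with and without this exchange where they rest on it. In the heat set, the METTL3 H4 input also stood apart, with 5.82% of its counts on chromosome 1 where the H5 input had 9.38%. In the knockout set, chromosome 14 took 5.81% of the wild type DGCR8 precipitate and 4.71% of the knockout one. Chromosome 8 took 6.04% and 6.87% of them. The knockout changes below were not corrected for these shares.

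The choice left an uneven map. Chromosome 1 held 346 of the 1219 windows (28.4%), where it held 13.6% of the eligible windows, and chromosome 14 held 86 (7.05% against 3.11%). Chromosome 8 held 23 (1.89% against 9.89%). With the inputs exchanged, chromosome 8 held 8.71% and chromosome 14 held 3.62%, while chromosome 1 still held 32.2%. The shares on chromosomes 8 and 14 thus moved with the choice of input. Chromosome 1 held 346 windows by the rule and 240 with the inputs exchanged, a high share under either.

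At the edge of the rule, the windows just inside had DGCR8 ratios of 2.50003 at Tardbp, which encodes an RNA-binding protein, and of 2.50133 at Ddx6, which encodes an RNA helicase, and in a window of chromosome 17 without a gene. Just outside were a window at Psme4, which encodes a proteasome activator, with a DGCR8 ratio of 2.496 and a Drosha ratio of 6.40, and 2 windows without a gene on chromosomes 4 and 10.

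The microRNA genes are the members whose link to the Microprocessor is known beforehand, so their sequences are shown first. In all, 6 windows held 11 annotated hairpins, and 31 lay within 10 kb of one. The mature sequences are from RefSeq (GRCm38.p6) and matched for 10 of the 11 hairpins held and for 16 of 19 other nearest hairpins. Mir328, Mir30b and Mir1949 are named only. Capitals mark the seed, bases 2 to 8, which pairs with target mRNAs. The first 10 are from hairpins held by the windows, on chromosome 2 for mmu-miR-130a-3p (chr2:84741116-84741137, minus strand), on chromosome 14 for the 6 of the miR-17-92 cluster (from chr14:115043684 on, plus strand), and on chromosomes 10, 11 and 19 for the rest.
mmu-miR-130a-3p: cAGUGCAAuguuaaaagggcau
mmu-miR-17-5p: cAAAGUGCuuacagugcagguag
mmu-miR-18a-5p: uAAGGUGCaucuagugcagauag
mmu-miR-19a-3p: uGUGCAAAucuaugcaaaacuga
mmu-miR-20a-5p: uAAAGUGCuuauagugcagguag
mmu-miR-19b-3p: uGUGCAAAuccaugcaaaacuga
mmu-miR-92a-3p: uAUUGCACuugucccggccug
mmu-let-7i-5p: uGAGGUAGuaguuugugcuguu
mmu-miR-744-5p: uGCGGGGCuagggcuaacagca
mmu-miR-5136: aUAUGCGAgggaacuacugg
The next 8 come from hairpins that lie beside a chosen window and not in it, and the results below return to them.
mmu-miR-182-5p: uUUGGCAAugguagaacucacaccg
mmu-miR-24-3p: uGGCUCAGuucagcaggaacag
mmu-miR-324-5p: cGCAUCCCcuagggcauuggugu
mmu-miR-16-5p: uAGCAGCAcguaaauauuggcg
mmu-miR-7a-5p: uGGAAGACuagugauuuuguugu
mmu-miR-30a-5p: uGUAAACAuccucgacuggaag
mmu-miR-30c-5p: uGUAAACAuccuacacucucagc
mmu-let-7d-5p: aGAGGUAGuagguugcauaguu
The 18 sequences carried 14 different seeds. miR-17-5p and miR-20a-5p shared AAAGUGC, miR-19a-3p and miR-19b-3p GUGCAAA, let-7i-5p and let-7d-5p GAGGUAG, and miR-30a-5p and miR-30c-5p GUAAACA. The seeds therefore belonged to several unrelated families.

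The hairpin is what DGCR8 and Drosha bind, so it is shown for the strongest window and for 3 others with high values. The mature arm is in capitals and the rest of the annotated precursor in lower case. Mir130a lies at chr2:84741115-84741178 on the minus strand, Mir17 at chr14:115043671-115043754 on the plus strand, Mir182 at chr6:30165918-30165992 on the minus strand and Mir24-2 at chr8:84208815-84208921 on the plus strand.
Mir130a: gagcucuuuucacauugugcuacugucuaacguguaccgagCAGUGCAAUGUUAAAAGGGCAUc
Mir17: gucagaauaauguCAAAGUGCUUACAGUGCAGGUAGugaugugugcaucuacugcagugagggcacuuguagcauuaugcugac
Mir182: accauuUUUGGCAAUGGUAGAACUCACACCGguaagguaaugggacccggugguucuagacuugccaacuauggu
Mir24-2: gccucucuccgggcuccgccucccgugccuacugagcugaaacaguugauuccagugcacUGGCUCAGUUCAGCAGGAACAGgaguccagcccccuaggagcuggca
In Mir130a and Mir24-2 the mature sequence shown lies in the 3′ arm, and in Mir17 and Mir182 in the 5′ arm.

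Most of the chosen windows were poor in input reads. The median window had 29 counts in each of the 2 inputs, where the median eligible window had 163 and 114. The DGCR8 DSG precipitate had a median of 100 counts in the chosen windows and 154 in the eligible ones. Relative to the median window of its library, the chosen windows stood at 1.25 times in the DGCR8 precipitate and 2.27 times in the Drosha precipitate, against 0.54 and 0.74 times in the inputs. So the ratio was reached in many windows by a low input. In 109 windows both inputs had at least 50 counts; these are called well-covered below, a division chosen after the values had been seen. Their DGCR8 and Drosha precipitates stood at 3.88 and 5.35 times the median window, and their inputs at 1.57 and 1.90 times. The other 1110 had an input under 50 counts.

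The median ratios that the rule used were 3.04 for DGCR8 and 4.06 for Drosha, against 0.89 and 1.17 over the eligible windows. Eligible windows with an input under 50 counts had medians of 1.66 and 3.10. Of these, 20.1% reached the DGCR8 limit of 2.5 and 76.2% the Drosha limit, so a high Drosha ratio was common to windows of that kind. Precipitates outside the rule repeated the excess to unlike degrees. DGCR8 with formaldehyde had a median ratio of 2.18 in the chosen windows and 1.29 in the well-covered ones. That ratio was taken over the DGCR8 input of the rule, so a low input count there entered both ratios. The ratio reached 2.5 in 392 of 1219 windows (0.956% of eligible windows did, and 6.96% of those with an input under 50 counts), but in 4 of the 109 well-covered ones (background 0.0594%). Over the parental input, also used by the rule, 99 windows reached 2.5. The formaldehyde precipitate itself stood at 0.89 times the median window of its library.

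The DGCR8 precipitate of the heat set at 37 °C had a median ratio of 3.57, and 5.86 in the well-covered windows. It reached 2.5 in 820 of 1218 windows (background 8.08%, and 28.3% among those with an input under 50 counts) and in 105 of the 109 well-covered ones (background 5.07%). The wild type DGCR8 precipitate of the knockout set was weaker, with a median of 1.55. It reached 2.5 in 122 windows (background 0.433%, and 2.95% among those with an input under 50 counts) and in 8 of the well-covered ones (background 0.0581%). Dicer, the cytoplasmic partner enzyme, had a median of 0.96, and 2 windows reached 2.5 (background 0.0264%, and 0.203% among those with an input under 50 counts), of the well-covered ones 0 (background 0%). The excess of DGCR8 thus recurred most fully in the heat set, and Dicer did not show it.

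For most of the windows the lack of METTL3 did not recur in the second METTL3 experiment. At 37 °C in the heat set the median METTL3 ratio of the chosen windows was 5.15 in H4 and 2.87 in H5, where the eligible windows had 0.83 and 0.79. Eligible windows with an input under 50 counts, like most of the chosen ones, had medians of 2.93 and 1.72. Of 1130 windows with an H4 value 1063 reached a ratio of 2 (background 16.4%, and 71.6% among those with an input under 50 counts). Of 1217 with an H5 value 964 did (background 8.52%, and 39.1% among those with an input under 50 counts). In 850 of 1129 windows both precipitates reached 2 (background 6.83%, and 35.4% of eligible windows with an input under 50 counts), among them 66 of the 109 well-covered ones (background 2.66%). In 34 windows both were under 2 (82.1% of eligible windows), and 21 of them were well-covered (19.3% of the 109, background 90.4%). Among them were the windows that hold Mir130a and Mir17 and those just past Mir130a, Mir182, Mir24-2 and Mir324. The chosen windows beside Mir16-1 and Mir30a, and that to the 3′ side of the miR-17-92 cluster, had both at 2 or more. Most of the chosen windows therefore had less than a 2-fold METTL3 excess in 1 set of libraries only. For those, "not METTL3" describes that set and not the windows in general.

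**Figure D1:**
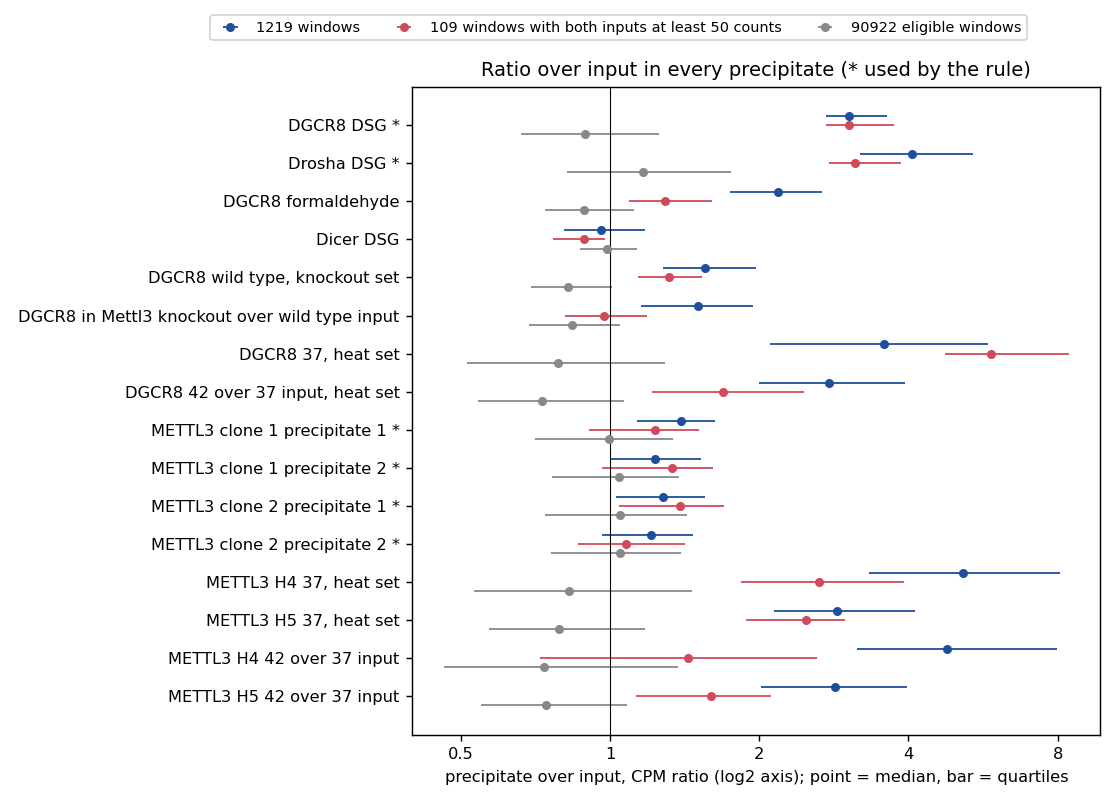
Precipitate over input ratio (CPM, log axis) in 16 precipitates, as the median (point) and the quartiles (bar) of the 1219 chosen windows, of the 109 with both inputs at 50 counts or more, and of the 90922 eligible windows; asterisks mark the libraries the rule used. The chosen windows have a median DGCR8 ratio of 3.57 at 37 °C in the heat set, a Dicer ratio of 0.96, and METTL3 ratios of 5.15 and 2.87 in H4 and H5.

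The strongest window by either ratio was chr2:84735001-84740000, which overlaps Ypel4 and begins 1115 bp to the 3′ side of Mir130a. The DGCR8 DSG precipitate had 10669 counts there over 306 in its input (ratio 32.1), and the Drosha precipitate 5644 over 227 (46.4). DGCR8 with formaldehyde had a ratio of 1.66 and Dicer 0.957. The excess of that size was thus in the DSG libraries of DGCR8 and Drosha and not in these other precipitates. In the knockout set the wild type DGCR8 precipitate had 3104 counts (ratio 18.1) and the Mettl3 knockout precipitate 112 (0.915, over the wild type input). In the heat set DGCR8 had 24836 counts at 37 °C (ratio 145) and 2767 after 42 °C (4.16, over the 37 °C input). The log2 change of CPM was -4.30 in the knockout (95% counting interval -4.57 to -4.02) and -5.12 after heat (-5.18 to -5.07). DGCR8 was therefore far higher in wild type cells at 37 °C than in either other library, in single libraries without a replicate.

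The adjoining window, chr2:84740001-84745000, holds Mir130a itself. It had 3636 counts over 372 for DGCR8 (ratio 9.01) and 855 over 339 for Drosha (4.71). Its DGCR8 counts were 723 in wild type and 114 in Mettl3 knockout cells, a log2 change of -2.17 (-2.45 to -1.89), and 3687 at 37 °C and 1320 after heat, a change of -3.44 (-3.53 to -3.35). The window without the hairpin thus had the higher counts of the pair in DGCR8 DSG, Drosha, wild type and heat set 37 °C precipitates, while in the knockout precipitate the pair was level (112 and 114 counts).

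The miR-17-92 cluster, an oncogenic set of 6 microRNAs made from the host transcript Mir17hg, gave 2 of the windows, on either side of a stronger window that was not chosen. The window with the 6 hairpins, chr14:115040001-115045000, had 1484 counts over 85 for DGCR8 (ratio 16.1) and 175 over 99 for Drosha (3.30). The window chr14:115050001-115055000, beyond the end of the cluster, had 607 over 36 (15.5) and 158 over 37 (7.98). Between them, chr14:115045001-115050000 had ratios of 200 for DGCR8 and 31.8 for Drosha but a METTL3 precipitate of clone 1 had a ratio of 3.24 there, above the limit of the rule. The rule thus cut through a single run of signal at this locus.

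In the knockout set, DGCR8 counts in the hairpin window were 467 in wild type and 92 in Mettl3 knockout cells (log2 change -1.85, interval -2.17 to -1.53), and in the outer window 316 and 47 (-2.24, -2.68 to -1.80). After heat they went from 1564 to 871 in the first (-2.80, -2.92 to -2.68) and from 3747 to 601 in the second (-4.59, -4.71 to -4.47), in libraries of 20.4 M counts at 37 °C and 79.3 M counts at 42 °C. Both windows were therefore lower in CPM in each comparison. Chromosome 14 as a whole took 5.81% of the wild type counts and 4.71% of the knockout counts.

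Other windows with a hairpin had lower ratios. The window of Mir328, between the transcription factor gene E2f4 and Elmo3 on chromosome 8, had DGCR8 and Drosha ratios of 2.99 and 4.40, and DGCR8 counts of 713 in wild type and 111 in knockout cells (log2 change -2.19, -2.48 to -1.90). Its heat change was -2.25 (-2.31 to -2.19). The window of Mir5136 and the small nucleolar RNA Snora57 on chromosome 19 had ratios of 3.08 and 3.87, a knockout change of -1.14 (-1.51 to -0.78) and a heat change of -3.27. That of Mirlet7i, a member of the let-7 family that is held back in ES cells, had ratios of 2.54 and 2.66 and changes of -0.80 and -1.44. The window of Mir744, in the kinase gene Map2k4, had ratios of 3.10 and 3.01 and was the exception, with changes of 0.50 (-0.01 to 1.01) in the knockout and -0.21 (-0.55 to 0.13) after heat.

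Several windows lay just past a hairpin, as at Mir130a. The window beginning 918 bp to the 3′ side of Mir182, in its host transcript Mirc35hg, had 8382 counts over 332 for DGCR8 (ratio 23.3) and 458 over 242 for Drosha (3.53). Its DGCR8 counts were 496 in wild type and 51 in knockout cells (log2 change -2.77), and 4708 at 37 °C and 441 after heat (-5.36). The window 1080 bp past Mir24-2, in the zinc finger gene Zswim4, had ratios of 10.8 and 2.93, DGCR8 counts of 1327 and 78 in the knockout set (-3.59, -3.91 to -3.26) and a heat change of -1.93. The windows that hold Mir182 and Mir24-2 had DGCR8 ratios of 19.9 and 4.12 but Drosha ratios of 1.99 and 1.40, short of the rule. Both neighbours were low in the knockout precipitate, with ratios of 0.446 and 0.552 over the wild type input.

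The window past Mir324, at Acadvl and Dlg4 and with ratios of 13.5 and 2.57, was low in the knockout (801 against 67 counts, log2 change -3.08, -3.43 to -2.72) but not after heat, where it had 3807 counts at 37 °C and 15634 at 42 °C (0.08, 0.03 to 0.13). It kept a ratio of 22.8 after heat. This window was the 1 of the hairpin windows named here whose heat value was level in CPM while its knockout value was low.

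Both genes of miR-16, a microRNA that restrains cyclins, had a neighbouring window. At Dleu2, the host of Mir16-1, DGCR8 had 1119 counts over 50 (ratio 20.6) and Drosha 158 over 52 (5.67), with log2 changes of -1.98 in the knockout and -2.96 after heat. At Smc4, a condensin gene that hosts Mir16-2, the window 5 bp past the hairpin had ratios of 16.6 and 5.89 and changes of -0.62 and -3.13. On chromosome 1 the run of 3 windows between Mir30a and Mir30c-2 had DGCR8 ratios of 6.56, 5.58 and 4.44, knockout changes of -0.87, -0.83 and -0.51 and heat changes of -1.93, -1.74 and -1.34. The Mir7-1 hairpin, in the RNA-binding protein gene Hnrnpk, had a chosen window on each side. The 3′ one had changes of -1.38 and -3.08, and the 5′ one, in Hnrnpk, 0.34 and -1.97.

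Of the 25 windows within 10 kb of a hairpin that did not hold it, 14 lay to its 3′ side, 4 to its 5′ side, and for 7 the hairpin's strand was not in the table. Among the eligible windows placed in the same way, 779 lay 3′ and 717 lay 5′ (52.1% 3′). The well-covered windows were 7 and 1. This is a description of few windows, and no test was made. In the same terms, the 1219 windows were no richer in hairpins than the eligible windows (6, or 0.492%, against 0.544%), and the 109 well-covered ones held 5 (4.59% against 0.602%). At any input count, a hairpin lay in 1.72% of windows with METTL3 in 4 of 4 precipitates and in 1.45% of those with it in some.

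**Figure D2:**
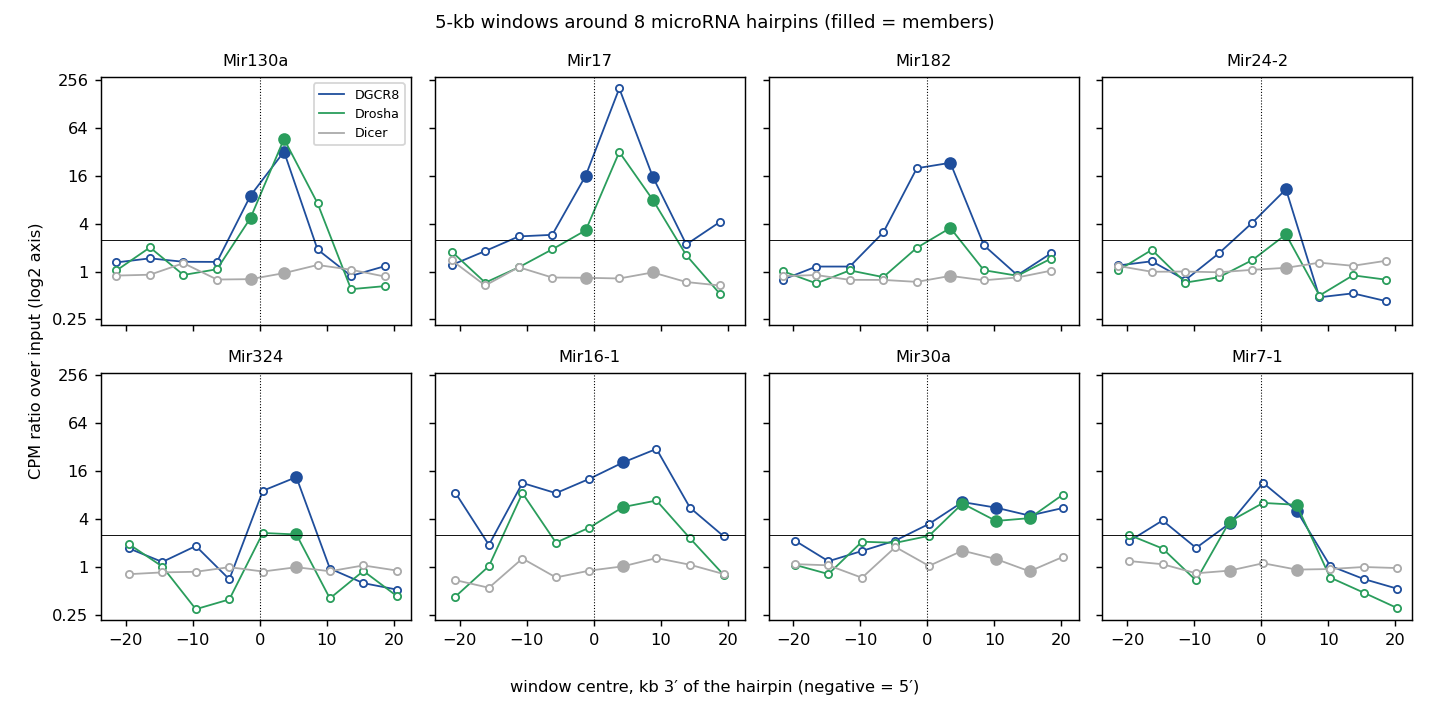
Ratio over input (log axis) of DGCR8, Drosha and Dicer in the 5 kb windows around 8 hairpins, by the distance of the window's centre in kb to the 3′ side of the hairpin; filled points are chosen windows and the line marks the ratio of 2.5. At Mir130a the DGCR8 and Drosha ratios are highest in the window to the 3′ side, at 32.1 and 46.4, and at Mir17 in the unchosen window, at 200 and 31.8.

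Next come the well-covered windows apart from microRNAs. Of the 109, 102 overlapped a gene, 27 held a gene's start (24.8% against 13.0% of eligible windows with the same input) and 5 held a small nucleolar RNA (4.59% against 0.355%). Small nucleolar RNAs were not particular to windows without METTL3. At any input count, 7.30% of windows with METTL3 in 4 of 4 precipitates held such an RNA. The share was 2.38% of windows with METTL3 in some precipitates and 0.656% of the 1219. Small nucleolar RNAs guide the modification of ribosomal RNA and are cut from introns of host genes. Of a list of 14 host genes, 4 overlapped chosen windows, namely Snhg5, Snhg8, Snhg14 and Snhg15. Of all 49554 RefSeq genes on chromosomes 1 to 19 and X 693 did (1.4%), the background for the list counts below. At Snhg8, host of Snora24, DGCR8 had 864 counts over 133 (ratio 5.99) and Drosha 371 over 128 (5.41). DGCR8 there had 221 counts in wild type and 91 in knockout cells (log2 change -0.79, -1.14 to -0.44), and 971 at 37 °C and 294 after heat (-3.67, -3.85 to -3.48). METTL3 in the heat set had 1181 and 975 counts at 37 °C and 362 and 337 after heat in H4 and H5 (-2.15 ± 0.37 SE, edgeR adjusted p = 0.068). Snhg5 was alike, with DGCR8 changes of -0.96 and -3.67 and a METTL3 change of -2.003 (adjusted p = 0.09). The wild type DGCR8 ratios at Snhg8 and Snhg5 were 1.92 and 1.51 in the knockout set, against 10.2 and 11.3 at 37 °C in the heat set, so the knockout set began from a smaller excess. At Snhg15 those ratios were 1.35 and 2.88 and the changes -0.94 and -1.69. At Snhg14 the window chr7:60125001-60130000, with an input under 50 counts, had changes of 0.77 and 0.28, so the 4 hosts did not share a direction.

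Eif4a2, a translation factor gene that hosts Snord2, had changes of -0.74 and -2.60, from ratios of 1.22 and 8.44. At H3f3b, which encodes the replication-independent histone H3.3, the ratios were 1.16 and 9.47. There DGCR8 had 172 and 92 counts in the knockout set (-0.41, -0.78 to -0.05) and 1466 and 409 in the heat set (-3.79, -3.95 to -3.63). Of the genes with a ribosomal protein name, 5 of 327 overlapped chosen windows, a share near that of all genes, 1 of them the kinase gene Rps6ka5. Rps29, Rps15a, Rpl22l1 and Rpl35, which encode ribosomal proteins, had knockout changes from -0.91 to -0.33 and heat changes from -2.86 to -2.22. Malat1, an abundant nuclear noncoding RNA, had ratios of 3.49 and 3.48 and changes of -0.82 and -0.84, and was the 1 gene of 11 nuclear noncoding RNAs to overlap a window.

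Genes for RNA-binding and splicing proteins were also present, among them Srsf3, Tra2a, Clk1, Tardbp, Rbm39, Nop58, Dhx9 and Matr3, a choice of names made after the list had been seen. At Matr3, a nuclear matrix RNA-binding protein gene, the ratios were 4.58 and 4.79 and the changes -1.36 and -3.13. The window of the replication-dependent histone genes H4c12, H2ac15 and H2bc15 had smaller changes, -0.19 and -0.55. Of the 22 heat shock genes, the 20 immediate early genes and the 13 genes of the microRNA pathway on fixed lists, 0 overlapped a chosen window, where 1.4% of all genes did. Of 22 pluripotency genes Tet2 did, and of 15 genes of the m6A machinery Wtap and Zc3h13, subunits of the METTL3 complex, did.

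The windows with an input under 50 counts had another character. The genes overlapped by these alone had a median length of 88.0 kb, where genes with a well-covered window had 18.4 kb. Genes of all eligible windows had 18.6 kb, and those of eligible windows with an input under 50 counts 66.1 kb. The genes with the most chosen windows of either kind were the potassium channel gene Kcnt2 with 8 of its 74 windows, the actin regulator Enah with 6 of 27, R3hdm1 with 6 of 28 and Fhit with 5 of 323. The 6 windows of Enah were all well-covered, and those of the other three genes had an input under 50 counts. Over all 1219 windows, 799 overlapped a gene (65.5%, against 74.5% of eligible windows). Those 799 windows overlapped 693 genes. The 1219 windows formed 1183 runs, so that 68 had a chosen neighbour.

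By the smaller of the 2 ratios, these thinly covered windows also stood high. At Akirin2, a gene for a nuclear protein, DGCR8 had 155 counts over 17 (ratio 8.402) and Drosha 83 over 19 (8.16), with changes of -0.91 (-1.46 to -0.35) and -1.38 (-1.63 to -1.13). A window of chromosome 1 without a gene, chr1:114025001-114030000, had 78 over 10 (7.19) and 66 over 11 (11.2) and changes of 0.54 and 0.70. At Ube2d3 and Serbp1 the heat changes were -2.62 and -2.07. High ratios on low inputs thus came with changes of either sign.

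Whether DGCR8 at these windows differed without METTL3 was compared in the knockout set, which the rule did not use. There was 1 library of each genotype, so a window was counted as higher or lower when its CPM differed by at least 1.5-fold, with no test. DGCR8 was lower in the knockout in 141 of 1219 windows (background 5.61%) and higher in 46 (background 5.04%), with a median log2 change of -0.07. In the windows with an input under 50 counts it was lower in 99 of 1110 (8.92%), beside 7.53% of the eligible windows with such an input, a share near the background, and higher in 46 (6.01% of such eligible windows). In the well-covered windows it was lower in 42 of 109 (38.5%, background 5.32%) and higher in 0 (background 4.9%), with a median of -0.39. The knockout change thus stood in a minority of windows, led by those beside microRNA hairpins.

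Among the windows with METTL3 in 4 of 4 precipitates, DGCR8 was lower in the knockout in 100 of 233. The lowest chosen windows were those beside Mir130a, Mir24-2, Mir324, Mir182 and Mir30b, from -4.30 to -2.45. Among the highest were a window of chromosome 8 without a gene (1.01), Gm20007 (0.94) and the kinase gene Cdc42bpa (0.92). Chromosome 8 as a whole took 6.04% of the wild type counts and 6.87% of the knockout counts. With the inputs exchanged in the rule, 96 of 746 windows were lower (12.9%) and 33 higher, and 45 of 77 well-covered ones were lower (58.4%). The low share over all windows and the high share in the well-covered ones were present with either input.

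After 1 h at 42 °C, DGCR8 was lower in 447 of 1219 windows (background 25%) and higher in 228 (background 17.6%), with a median log2 change of -0.23. In the well-covered windows it was lower in 100 of 109 (91.7%, background 25.9%) and higher in 0 (background 15.9%), with a median of -1.78. In those with an input under 50 counts it was lower in 347 of 1110 (31.3%, background 18.8%) and higher in 228 (20.5%, background 29%). Windows with METTL3 in 4 of 4 precipitates were lower in 210 of 233. With the inputs exchanged, 292 of 746 windows were lower (39.1%), 150 higher, and 76 of 77 well-covered ones lower (98.7%). The median window of chromosomes 1 to 19 was 0.27 higher after heat on the log2 scale. Relative to that median, 573 of the 1219 windows were lower (47.0%, against 38.0% of eligible windows) and 135 higher (11.1%, against 9.91%), with a median of -0.51 where the eligible windows had -0.36. On this scale 106 of the 109 well-covered windows were lower (97.2%, against 39.5% of eligible windows with the same input). Heat was thus the comparison in which nearly all well-covered windows moved one way.

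The lowest values after heat were at Mir182 (-5.36), Mir130a (-5.12) and the outer miR-17-92 window (-4.59). At the other end stood windows with few counts at 37 °C. At Edil3, a gene for an extracellular matrix protein, DGCR8 had 0 counts at 37 °C and 102 at 42 °C. In a window of chromosome 13 without a gene it had 2 and 119. The precipitate at 37 °C had 20.4 M counts and that at 42 °C held 79.3 M counts, so low windows were read less precisely at 37 °C.

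**Figure D3:**
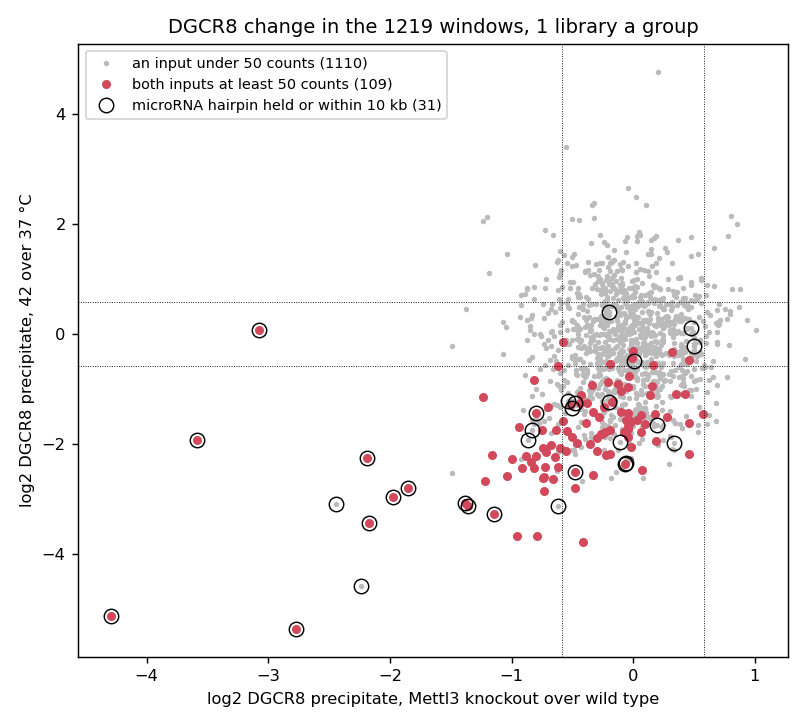
Log2 change of DGCR8 CPM in Mettl3 knockout cells (x axis) against that after heat (y axis) for the 1219 windows, each from 1 library per condition; red points are the 109 well-covered windows, rings the 31 at or within 10 kb of a hairpin, and dotted lines the 1.5-fold limits. Of the red points, 100 lie below the heat limit and 42 below the knockout limit.

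METTL3 itself was compared before and after heat in H4 and H5 (n = 2 and 2) over 495095 windows with edgeR. No window was called after Benjamini-Hochberg adjustment (background 0% higher and 0% lower). At an unadjusted p under 0.05 there were 191 of the 1219 windows (15.7%, against 6.67% of all windows tested and 12.6% of eligible ones). Of the 109 well-covered ones there were 69 (63.3%, against 13.1% of eligible windows with the same input). The median log2 change was -0.13 in the chosen windows, where the eligible windows had -0.19. It was -0.77 in the well-covered ones, of which 3 were above 0, where eligible windows with the same input had -0.21. In the 233 windows with METTL3 in 4 of 4 it was -1.44. With H4 and H5 as a replicate block 108 of the chosen windows were called (background 1.84% lower and 0.238% higher), and DESeq2 called 92 (background 1.68% lower and 0.0145% higher), each of them lower. Leaving out 1 of the 4 libraries gave 8 and 17 calls without H4 and H5 at 37 °C, and 3 and 7 without H4 and H5 after heat. On simulated counts the test without the block called 5 of 100 windows changed 2-fold and 89 of 100 changed 4-fold. Changes of the size seen here were thus mostly below what the test without the block could call. The blocked test was not tried on simulated counts.

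The RNA of the overlapping genes was compared next. Of the 693 genes, 619 matched the RNA table, and 489 of these (79.0%) had at least 1 CPM in parental cells at 37 °C. That share was 61.7% for the genes of eligible windows and 64.3% for those of eligible windows with an input under 50 counts. A gene counted here overlaps a chosen window and can be much longer than it.

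In the knockout lines against parental cells at 37 °C (n = 4 and 2), 1 of 506 genes tested was called higher (background 0.416%) and 3 lower (background 0.486%). Tex15, a germline gene, had 147 and 148 CPM in parental cells and 24.5, 15.5, 15.2 and 23.7 CPM in the knockout lines (log2 fold change -2.91 ± 0.32 SE, edgeR adjusted p = 0.0043). The groups did not overlap. Hmces, which encodes a protein that shields abasic sites in DNA, had 146 and 154 CPM against 62.3, 67.4, 77.9 and 64.1 (-1.14 ± 0.18, adjusted p = 0.019). Nabp1 was also lower (-1.05, adjusted p = 0.041), and Pdgfc, a growth factor gene, was higher (1.34, adjusted p = 0.043). After heat, 2 genes were called higher (background 0.333%) and 5 lower (background 0.307%), with Tex15 again lowest in p (-2.76, adjusted p = 0.012). Snora24, the small nucleolar RNA in Snhg8, was among them (-1.86, adjusted p = 0.048). Without either parental library, 0 of the genes were called at 37 °C or after heat, so these calls rest on 2 parental samples. Without knockout replicate 2 or 3 at 37 °C 1 call was left, without replicate 4 there were 2, and after heat 0, 2, 4 and 4 without replicates 2, 3, 1 and 4. At an unadjusted p under 0.05 there were 73 genes at 37 °C (14.4%, against 16.0% of all genes tested). The log2 fold change at 37 °C was above 0 in 146 of the 506 genes (median -0.18), against 7910 of all 15635 (median 0.008). Among genes of eligible windows with an input under 50 counts it was above 0 in 852 of 2255 (median -0.13).

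Without the line as a block, few of these genes were called after heat. In parental cells 0 of 506 were called (background 0.0128% higher and 0.0064% lower; 12 at an unadjusted p under 0.05, and 2 called by DESeq2). In the knockout lines 1 was called higher (background 0.166%) and 0 lower (background 0.0192%). That gene was Khdc4, which encodes a splicing regulator, with 59.3, 55.7, 41.3 and 49.5 CPM at 37 °C and 110, 112, 108 and 121 after heat (1.13 ± 0.15, edgeR adjusted p = 0.007). Its change in parental cells was 1.07 (adjusted p = 0.29). With the line as a block, 8 genes were called in parental cells (4 higher, 4 lower) and 37 in the knockout lines (14 higher, 23 lower). Over all genes, parental cells gave 69 higher and 50 lower (0.441% and 0.32%). The knockout lines gave 605 higher and 453 lower (3.87% and 2.9%). The difference between the heat effects of knockout and parental cells was called for 0 of these genes by edgeR (1 at an unadjusted p under 0.05, 208 of all genes tested). With the line as a block it was also called for 0 of them (21 at an unadjusted p under 0.05, and 952 of all genes tested).

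After 24 h of 4OHT the genes called were those of the miR-17-92 host transcript. In the DGCR8 line 5 of 510 genes were called higher (background 0.107%) and 0 lower (background 0%), and in the Drosha line 5 of 518 higher (background 0.154%) and 0 lower (background 0.0307%). All of these calls, in both lines, were rows of the miR-17-92 locus, Mir17hg and microRNA genes within it, which share reads with one another, so they count as 1 locus. Mir17hg had 86.0 and 60.9 CPM in untreated and 329.8 and 355 CPM in 4OHT-treated DGCR8 cells at 24 h (log2 fold change 2.22 ± 0.18 SE, edgeR adjusted p = 0.0014). In the Drosha line it had 56.3 and 58.5 against 242 and 272 CPM (2.16 ± 0.18, adjusted p = 2.3e-05). The treated libraries lay above the untreated ones in both lines. Leaving out any 1 of the 4 libraries left 1 or 2 calls in the DGCR8 line at 24 h and 3 or 4 in the Drosha line. The changes were 2.01 and 1.82 at 48 and 96 h in the DGCR8 line and 1.961 and 2.18 in the Drosha line.

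Mir17hg also had lower values after heat, from 99.5 and 31.1 to 28.4 and 9.62 CPM in parental cells. Parental sample 1 lay far above parental sample 2 at either temperature, and the change was not called without the line as a block (-1.79 ± 0.98); with it, the fold change was -1.76 in parental cells (edgeR adjusted p = 0.0053) and -1.31 in the knockout lines (adjusted p = 0.00081). The knockout lines at 37 °C spanned 23.1 to 115 CPM and overlapped the parental samples.

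**Figure D4:**
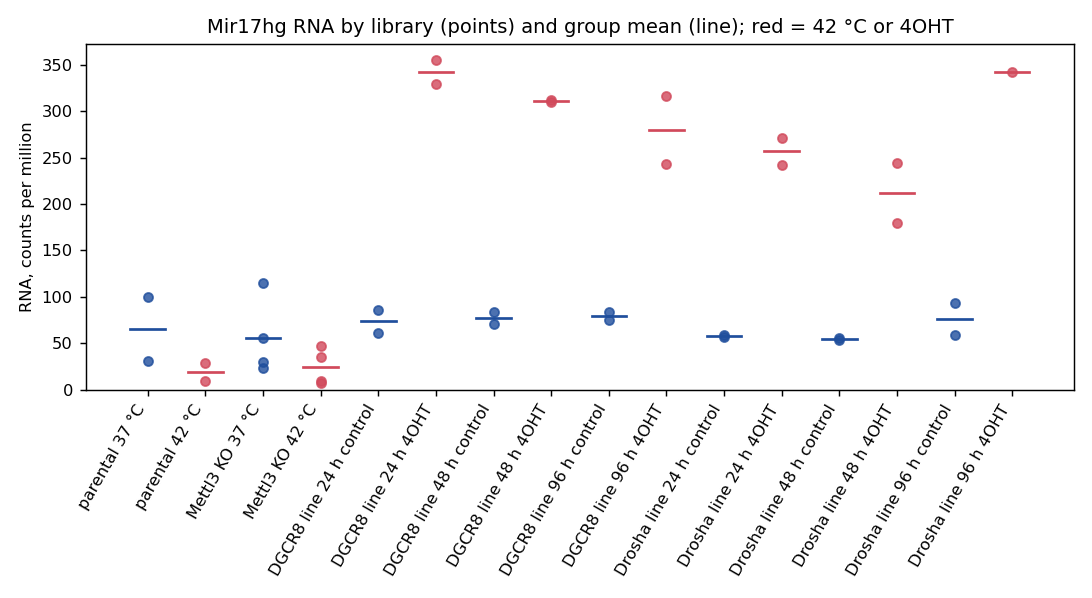
CPM of Mir17hg in each RNA library (points, linear axis), by group; lines are group means and red marks heat or 4OHT. In both floxed lines the 4OHT-treated libraries, from 180 to 355 CPM, lie above the untreated ones, from 53.2 to 92.9 CPM.

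Among other host transcripts of microRNAs, Dleu2 had fold changes of 0.59, 0.36 and 0.47 in the DGCR8 line, none called, and rose in the Drosha line at 96 h (0.84, edgeR adjusted p = 0.017). Smc4 rose there as well (0.38, adjusted p = 0.032), as did Zfp207 (0.48, adjusted p = 0.0084). These calls in the Drosha line at 96 h rest on its lone treated library. R3hdm1 had 0.33 and 0.21 at 96 h in the 2 lines and was not called. Ypel4, beside Mir130a, was too low in RNA to be tested.

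By 96 h the calls had spread. In the DGCR8 line 11 genes were higher at 48 h (background 1.24%) and 1 lower (background 0.24%), and 72 higher at 96 h (background 8.25%) and 12 lower (background 5.22%). In the Drosha line 18 were higher at 48 h (background 2.45%) and 1 lower (background 0.369%). The Drosha line at 96 h has 1 treated library, whose spread is taken from the other groups, so that it is assumed to vary like them. There 172 of 518 were higher (33.2%, background 12.7%) and 22 lower (background 11%). These counts moved with single libraries. In the DGCR8 line at 96 h, 84 calls in all became 23 or 18 without untreated replicate 1 or 2 and 168 without treated replicate 2. At 48 h, 12 calls became 3 to 5 without any 1 library there, and 19 in the Drosha line became 2 or 5 without untreated replicate 1 or 2 and 9 or 39 without treated replicate 1 or 2. Among genes of eligible windows with an input under 50 counts, 29.2% were higher and 2.93% lower in that comparison, and 13.7% and 2.09% in the DGCR8 line at 96 h. Among genes with a well-covered window 25 of 116 were higher (21.6%) and 16 lower (13.8%) in the Drosha line at 96 h. Most of the chosen genes were thus not called, and more of those called were higher than lower. Their shares were near those of all genes of eligible windows with an input under 50 counts, a set that includes genes of chosen windows.

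**Figure D5:**
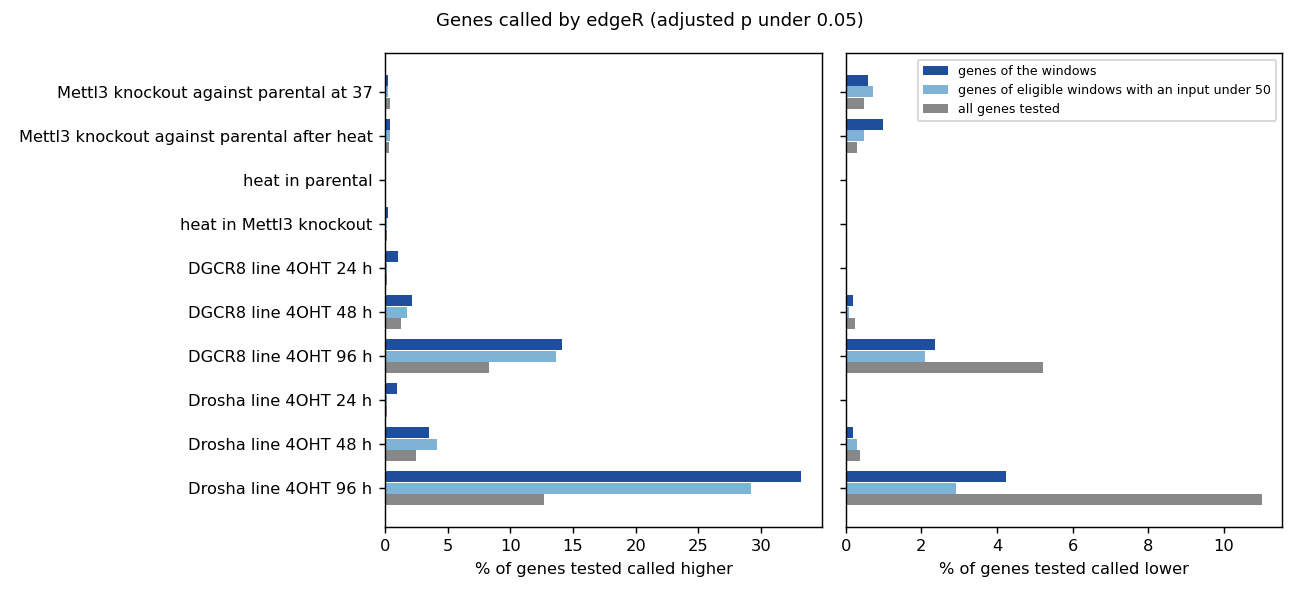
Percent of tested genes called higher (1 panel) and lower (the other) by edgeR in 10 RNA comparisons, for genes overlapping the chosen windows, genes of eligible windows with an input under 50 counts, and all genes. In the Drosha line at 96 h, 33.2%, 29.2% and 12.7% are called higher.

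Genes that rose in both lines at 96 h included Trps1, a transcriptional repressor gene, with 105 and 105 CPM in untreated and 274 and 277 in treated DGCR8 cells (1.39, edgeR adjusted p = 0.00018) and 54.2 and 75.1 against 123 CPM in the Drosha line (0.93, adjusted p = 0.00082). Hbp1, a repressor of cell cycle genes, rose by 1.15 and 1.28, and Golga1, which encodes a Golgi protein, by 1.31 and 1.07. Sema3e, a guidance signal, rose by 1.64 and 0.60 and Pafah1b2 by 0.84 and 0.86. Those that fell in both were Mkrn1, a ubiquitin ligase gene (-0.83 and -0.61), and Pkm, the pyruvate kinase gene (-0.57 and -0.58). Zc3h13, of the m6A writer complex, fell in the Drosha line (-0.63, adjusted p = 0.0091), and Clk1, a kinase of splicing factors, rose there (0.80, adjusted p = 0.0025), both from the lone treated library. These genes overlap windows chosen for DGCR8 and Drosha on chromatin, and whether that bears on their RNA was not tested.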

How the data were processed

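Counts per 5 kb window (ChIP) and per gene (RNA) were used as deposited by the authors, as raw read counts; per the submitters' processing notes, reads were aligned with Bowtie to mm10. Aligner version, counting strand and annotation are not given in the sources used here. Per the labels' protocols, RNA was depleted of ribosomal RNA before ScriptSeq libraries. CPM values were computed from library totals. The windows, gene lists and tests were chosen with earlier results of these data known.

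Conditions with 1 ChIP library were compared as log2 CPM ratios with 1 count added in the smaller library and a proportionate count in the larger, for windows whose 2 libraries summed to at least 50; 95% intervals cover counting error only. Replicated counts were tested with edgeR 4.0.16 (quasi-likelihood test, TMM, filterByExpr for genes, a mean of at least 10 counts for windows, R 4.3.3) and Benjamini-Hochberg adjustment over all features at 0.05. DESeq2 1.42.0, other filters, ratios and inputs, a replicate block and left-out libraries were alternatives. Windows were matched to genes and hairpins by RefSeq GRCm38.p6 coordinates, which is the assembly of mm10. The edgeR scripts were tested on simulated data.

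Named windows were those with the highest smaller ratio, those holding or nearest to a microRNA gene, the extremes of each change and the edge of the rule; named genes were those of smallest p among the called, list members and genes with most windows. Members of the well-covered group and further neighbours of hairpins were named after their values had been seen. The DGCR8 column without a cross-linker in its name was taken as the formaldehyde precipitate, by elimination.

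Same-numbered samples pair in the heat RNA set (same lines; correlation of deviations 0.48 in parental and 0.64 to 0.74 in knockout samples) and share H4 or H5 in the METTL3 heat set (0.243).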

Additional observations from a re-analysis of the deposited data

Results flagged for a closer look

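Within the groups of 4 knockout libraries, 7 of 90 combinations of a gene named in the report and a group held 1 library far from the other 3; chance alone marks about 1 in 20. At 37 °C Dennd1b, a gene for an endocytic exchange factor, stood at 107 CPM in replicate 2 with the others at 63.9 to 66.8, and Pafah1b2 at 134 in replicate 4 with the others at 104 to 108. After heat, the histone gene H2bc15 stood at 75.9 CPM in replicate 4 with the others at 97.5 to 98.4, and Snhg5 at 106 in replicate 4 with the others at 62.5 to 68.1. In the same group Mir19a stood at 1.52 in replicate 2 with the others at 0.343 to 0.512, Snora57 at 2.66 in replicate 1 with the others at 1.47 to 1.63, and Wtap at 177 in replicate 1 with the others at 121 to 130. None of these 7 genes was called between knockout and parental cells in that group.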

How the results depend on the processing

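The number of windows was 1219 by the rule, 2759 with ratios of at least 2, 534 with at least 3, 447 with METTL3 under 1.5, 746 with the inputs exchanged and 109 with both inputs at 50 counts or more. Over the windows of the last choice, the counts in the order formaldehyde DGCR8, wild type DGCR8, DGCR8 at 37 °C, both METTL3 of the heat set and Dicer were 4, 8, 105, 66 and 0. With a minimum of 20 input counts formaldehyde DGCR8 gave 256, METTL3 490 and Dicer 0; formaldehyde DGCR8 over the parental input gave 99, Dicer over the DGCR8 input 9, and wild type DGCR8 after median scaling 265. In the knockout, 71 windows were lower and 21 higher with ratios of at least 3, 42 and 0 with both inputs at 50 counts, and 28 were higher either with 100 counts in both libraries or with inputs of at least 20. After heat, 220 were lower and 91 higher with ratios of at least 3, 100 and 0 with both inputs at 50, 292 and 150 with inputs exchanged, and higher ones numbered 138 with inputs of at least 20 and 135 after median scaling. METTL3 calls after heat were 0 by edgeR, 92 by DESeq2 and 108 with a replicate block.

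Genes called were fewer when a gene had to start in a chosen window: 0 of 4 in the knockout at 37 °C, 0 of 7 after heat, 0 of 1 for heat in the knockout lines, 1, 1 and 6 in the DGCR8 line and 1, 1 and 11 in the Drosha line. Genes of well-covered windows gave 1, 2 and 0 in the first 3, 7 and 19 in the DGCR8 line at 48 and 96 h, and 9 and 41 in the Drosha line. DESeq2 gave 24 and 24 in the knockout, 2 and 2 for heat and 8 in the Drosha line at 24 h. Without a filter on low counts there were 11 and 11 in the knockout, 1 for heat in parental cells, 8 and 20 in the DGCR8 line at 24 and 48 h, and 25 and 37 in the Drosha line. The replicate block gave 8 and 37 for heat, and in the floxed lines, where numbers are shared without a stated pairing, 5, 14 and 88 (DGCR8) and 7, 16 and 179 (Drosha); crossed numbers gave 8 in the DGCR8 line at 24 h and 34 in the Drosha line at 48 h. No paired analysis was possible between knockout and parental cells because the labels give the knockout lines no replicate numbers.

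Leaving out 1 library gave 3 to 17 METTL3 windows, 0 to 3 and 0 to 4 genes in the knockout at 37 °C and after heat, 0 for heat in parental and 1 in knockout cells, 1 to 2, 3 to 5 and 18 to 168 in the DGCR8 line at 24, 48 and 96 h, and 3 to 4, 2 to 39 and 173 to 181 in the Drosha line. Of the single genes and windows, 453 values stayed on their side of the threshold under other settings, 7 lost their call and 0 changed direction; with 1 library left out 217 stayed and 163 lost it. The causes were not tested, beyond that fewer windows, genes or libraries enter some settings.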
